A study of Caenorhabditis elegans with 30 samples.

Results

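The 10 genes described here are clik-3, cng-1, dhp-2, T16G1.7, txt-14, ttr-16, twk-42, F42G10.1, F42A10.7 and R13H4.2 of Caenorhabditis elegans. They were chosen by name from genes whose level differed between worms kept overnight with lithium and worms kept on plain agar at both 20 C and 15 C. They are 10 of 46904 genes in the count table of the lithium experiment and 10 of 46778 in that of the ice experiment, and all 10 passed the filter on low counts in every fit. The values that chose them are the adjusted p-values of the lithium comparisons at 20 C and 15 C, so the lithium effects below are a description of the choice and not a test of it. The temperature comparison averaged over both agars is balanced with regard to lithium, although it uses the same libraries and the same estimate of spread. How many of the 10 are called in it is therefore not independent of the choice. The worms on ice were no part of the choice.

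RNA from whole worms of the N2 strain, fed on E. coli OP-50, was sequenced in 30 libraries of 10 groups with 3 replicates each. In the lithium experiment untrained worms that saw no ice were held overnight on agar with 15 mM LiCl or on plain NGM agar, at 20 C or 15 C (lithium at 20 C, plain agar at 20 C, lithium at 15 C, plain agar at 15 C). In the ice experiment worms without lithium were conditioned with the odorant butanone or left naive after a night at 15 C, a night at 15 C followed by 2 h at 20 C, or cultivation at 20 C, and all of them then spent 2 h on ice before RNA was extracted. The study uses the overnight stay at 15 C as a way to make worms cold tolerant, and asks which genes go with the loss of delayed forgetting on ice. Because whole worms were pooled, fewer cells of a type and less RNA per cell cannot be told apart in any value below. Libraries held 10111055 to 27794834 counts in the lithium experiment and 9873554 to 30054357 in the ice experiment. Every tissue list checked (germline, cuticle, sperm, yolk, neuron, muscle and intestine) was detected in every group, with rol-6, peel-1 or rgef-1 at 0 in some. Levels are in CPM, a gene's counts scaled to a common library size after TMM normalisation, and are compared within 1 experiment only, since the 2 experiments were scaled separately and made with different kits.

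The lithium ion is known to inhibit inositol monophosphatase, which recycles inositol for phosphoinositide signalling, and the kinase GSK-3. Both enzymes act downstream of or beside receptor signalling in many cell types, neurons included. Of the 10 genes, cng-1 encodes a subunit of a cyclic nucleotide-gated channel, the channel type that turns cyclic GMP into a current in sensory neurons. The gene twk-42 encodes a leak potassium channel of the TWK family, which sets the resting potential of excitable cells. Dihydropyrimidinase, the product of dhp-2, opens the ring of dihydrouracil and dihydrothymine in pyrimidine breakdown. A protein with calponin-like repeats, a motif that binds actin filaments, is encoded by clik-3, and ttr-16 encodes a secreted protein of the transthyretin-related family. No role is given here for txt-14, T16G1.7, F42G10.1, F42A10.7 and R13H4.2.

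All 10 are protein-coding genes, with coordinates of genome build ce11 from the Ensembl annotation. Of the genes that lithium raised, clik-3 (WBGene00019361) lies on chromosome I from 3419600 to 3424211 on the plus strand, and cng-1 (WBGene00000562) on chromosome V from 15025731 to 15031473 on the minus strand. Chromosome V also holds T16G1.7 (WBGene00011801, 12932941 to 12935112, minus), txt-14 (WBGene00013081, 18582658 to 18582967, plus), twk-42 (WBGene00006692, 17726791 to 17732616, minus) and R13H4.2 (WBGene00014826, 11836391 to 11838020, plus). Chromosome IV holds dhp-2 (WBGene00000964, 9978122 to 9980775, plus) and ttr-16 (WBGene00012382, 11063530 to 11064137, minus). The gene F42G10.1 (WBGene00009645) is on chromosome X from 10018046 to 10022166, and F42A10.7 (WBGene00018343) on chromosome III from 6177916 to 6178686, both on the minus strand. Exons of ttr-16 share 209 bases, 40.7% of its exon length, with lin-3 on the other strand, and those of cng-1 share 280 bases with F14H8.8. R13H4.2 lies inside nphp-4 without sharing exon bases, and dhp-2, T16G1.7 and twk-42 share 42, 60 and 28 exon bases with rrp-1, T16G1.2 and fat-5, all on the other strand. The strand setting of the counting is not given in the sources used here, so reads of such pairs may not be separable. Of the 6 partners, rrp-1, lin-3 and fat-5 passed the filter on low counts, and none of them was called with lithium at 20 C or 15 C.

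Per kilobase of exon the 10 genes spanned a wide range of levels. In worms on plain agar at 20 C, ttr-16 stood highest at 751 ± 53.5 CPM per kilobase (SD, n = 3 throughout), followed by txt-14 at 205 ± 20.6 and R13H4.2 at 111.3 ± 10.11. Next came T16G1.7 at 35.5 ± 14.4, clik-3 at 28.8 ± 0.644 and F42A10.7 at 22.6 ± 5.50, which lie within the spread of T16G1.7. Lower still were dhp-2 at 6.07 ± 1.298 and F42G10.1 at 6.04 ± 1.62, which could not be ordered, then twk-42 at 3.15 ± 0.342 and cng-1 at 0.641 ± 0.342. The levels of the least abundant members rest on few reads: cng-1 had 9 to 12 counts per library on plain agar at 15 C, and twk-42 had 4 counts in lithium replicate 2 at 15 C.

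The channel gene cng-1 had 8.69, 11.1 and 8.75 CPM in replicates 1, 2 and 3 with lithium at 20 C, against 0.765, 2.69 and 2.08 CPM on plain agar at 20 C. At 15 C it had 6.24, 6.65 and 6.29 CPM with lithium, against 0.624, 0.925 and 0.651 CPM on plain agar. The groups lay well apart at both temperatures, and replicate 1 on plain agar at 20 C was as low as the worms on plain agar at 15 C. Its log2 fold change was 2.37 (SE 0.38) at 20 C and 3.14 (SE 0.41) at 15 C. The potassium channel gene twk-42 had 1.40, 1.07 and 1.35 CPM with lithium and 4.86, 4.96 and 5.89 CPM on plain agar at 20 C. At 15 C it had 0.967, 0.422 and 0.977 CPM with lithium and 2.95, 2.67 and 3.74 CPM on plain agar. Thus the pair of channel genes moved in opposite directions, with twk-42 at log2 fold changes of -2.04 (SE 0.33) and -1.92 (SE 0.33).

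The gene of the pyrimidine-breakdown enzyme, dhp-2, had 2.09, 2.00 and 2.21 CPM with lithium and 10.103, 12.6 and 8.17 CPM on plain agar at 20 C. At 15 C it had 1.07, 0.739 and 1.16 CPM with lithium and 5.22, 5.76 and 5.70 CPM on plain agar. Lithium worms at either temperature lay below every worm sample on plain agar, and the log2 fold changes were -2.29 (SE 0.26) and -2.45 (SE 0.27). The calponin-like gene clik-3 had 67.9, 59.3 and 68.2 CPM with lithium and 25.7, 26.2 and 25.03 CPM on plain agar at 20 C. At 15 C it had 52.1, 61.2 and 61.3 CPM with lithium and 16.5, 12.95 and 13.6 CPM on plain agar. Its replicates were close to each other in all 4 groups, and the log2 fold changes were 1.34 (SE 0.15) and 2.02 (SE 0.16). The transthyretin-related gene ttr-16 had 149, 116 and 132 CPM with lithium and 366, 418 and 374 CPM on plain agar at 20 C. At 15 C it had 91.4, 107 and 96.9 CPM with lithium and 256, 207 and 236 CPM on plain agar, and the log2 fold changes were -1.55 (SE 0.15) and -1.24 (SE 0.15). The lithium levels of ttr-16 at 20 C thus lay below its levels on plain agar at 15 C.

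**Figure D1:**
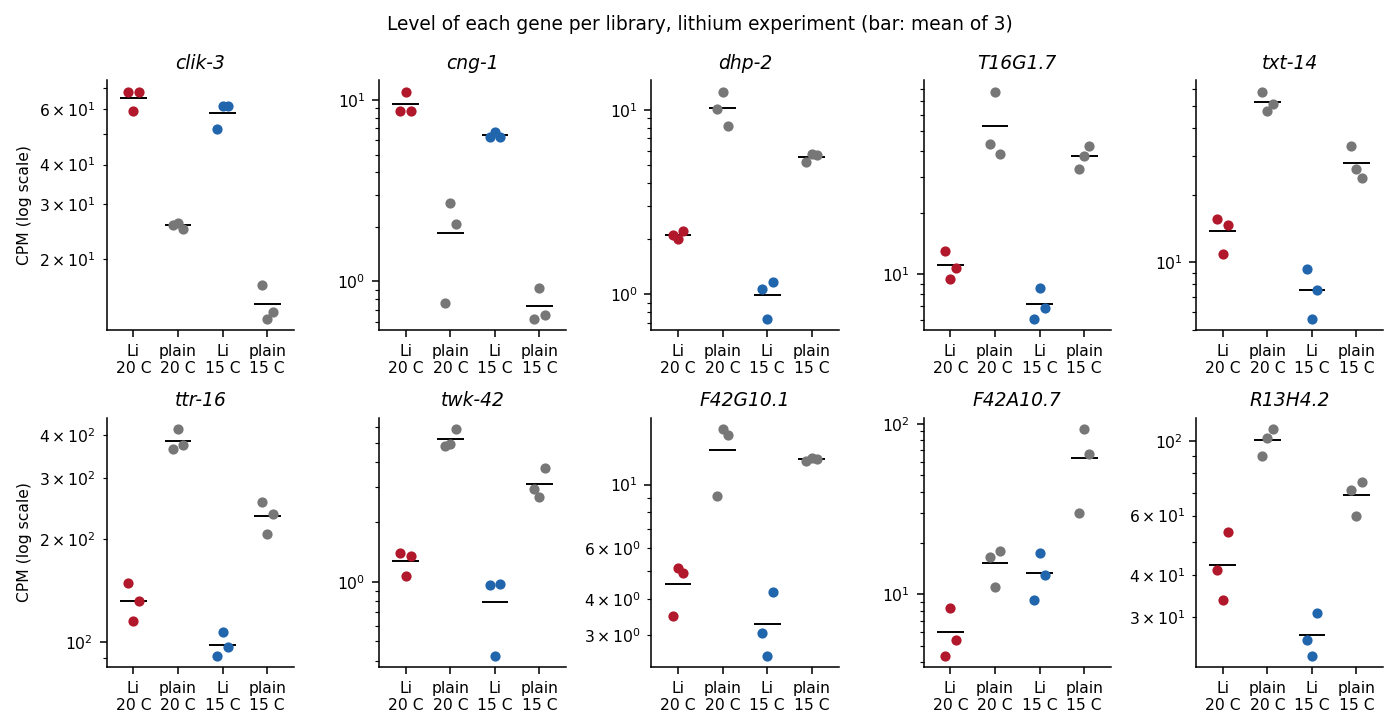
CPM on a log axis in each library of the lithium experiment for the 10 genes, with lithium groups in colour left of their plain-agar groups in grey and bars at the mean of 3. In each panel the lithium points do not overlap the plain-agar points of the same temperature, as for clik-3 at 59.3 to 68.2 against 25.03 to 26.2 CPM at 20 C.

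Among the genes given without a role, T16G1.7 had 12.95, 9.49 and 10.74 CPM with lithium and 43.1, 78.0 and 38.5 CPM on plain agar at 20 C. At 15 C it had 6.07, 8.55 and 6.84 CPM with lithium and 32.6, 37.7 and 42.5 CPM on plain agar, and the log2 fold changes were -2.26 (SE 0.28) and -2.40 (SE 0.28). Plain-agar replicate 2 at 20 C lay far above the other plain-agar samples, and without it the effect at 20 C was -1.88. The short gene txt-14 had 15.6, 10.9 and 14.7 CPM with lithium and 58.2, 47.8 and 51.3 CPM on plain agar at 20 C. At 15 C it had 9.34, 5.60 and 7.51 CPM with lithium and 33.3, 26.1 and 23.9 CPM on plain agar, with log2 fold changes of -1.93 (SE 0.23) and -1.88 (SE 0.23). Its fold was nearly the same at both temperatures, while both agars gave lower levels at 15 C. R13H4.2 had 41.4, 33.8 and 53.6 CPM with lithium and 90.4, 102 and 108 CPM on plain agar at 20 C. At 15 C it had 25.6, 23.0 and 30.9 CPM with lithium and 71.7, 60.0 and 75.4 CPM on plain agar. Its log2 fold changes of -1.22 (SE 0.19) and -1.38 (SE 0.19) were among the smaller ones. F42G10.1 had 3.49, 5.13 and 4.91 CPM with lithium and 9.12, 15.6 and 14.9 CPM on plain agar at 20 C. At 15 C it had 3.04, 2.53 and 4.22 CPM with lithium and 12.0, 12.3 and 12.3 CPM on plain agar, with log2 fold changes of -1.55 (SE 0.28) and -1.90 (SE 0.28).

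The remaining gene, F42A10.7, behaved differently with temperature. It had 4.34, 8.27 and 5.41 CPM with lithium and 16.5, 10.99 and 18.02 CPM on plain agar at 20 C. At 15 C it had 9.24, 17.5 and 12.95 CPM with lithium and 29.7, 93.0 and 66.8 CPM on plain agar, so worms with lithium at 15 C reached the level of worms on plain agar at 20 C. The replicates on plain agar at 15 C spread over a wide range, and the log2 fold changes were -1.34 (SE 0.40) at 20 C and -2.26 (SE 0.40) at 15 C. It is the member closest to the threshold of the choice, an adjusted p of 0.05 in both comparisons, with 0.0492 at 20 C. The nearest genes beyond that threshold were dkc-1 (0.0507 at 15 C) and ears-1 (0.0520 at 20 C and 0.0523 at 15 C).

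Read together, 2 of the 10 genes were higher and 8 lower with lithium at both temperatures, with medians of -1.55 at 20 C and -1.89 at 15 C beside medians over all genes of -0.07 and 0.07. In the fit of all 12392 genes, 12.2% were called at 20 C (5.91% higher and 6.33% lower) and 0.387% at 15 C (0.161% higher and 0.226% lower). At both temperatures in the same direction 0.274% were called (34 genes; 0.105% higher and 0.169% lower), which is the set these 10 come from. Groups without overlap were common: 33.5% of all genes at 20 C, 31.1% at 15 C and 11.5% at both in the same direction had none, as did all 10 members. The difference between the lithium effects, 15 C minus 20 C, ran from -0.93 (F42A10.7, SE 0.56) to 0.77 (cng-1, SE 0.54), with clik-3 at 0.67 (SE 0.21). Both parts of this difference were used by the choice, so for the 10 genes it is a description and not a test. Of all genes 0 were called for this difference by edgeR, with 1261 at an unadjusted p under 0.05, and 0 by DESeq2. No direction changed when each of the 12 libraries was left out in turn, and clik-3, dhp-2, T16G1.7 and ttr-16 stayed past the threshold in all 12 fits at both temperatures. By contrast, F42A10.7 passed in 1 of 12 fits at 20 C and 6 of 12 at 15 C, and twk-42 passed in 9 of 12 and 5 of 12. Between 4 and 10 members passed at 20 C, with 6 without lithium replicate 1 and 4 without lithium replicate 2. At 15 C between 5 and 10 passed, with 6 without lithium replicate 2 and 5 without plain-agar replicate 3. In a fit of the 6 libraries at 20 C alone no gene passed, the members keeping their size (clik-3 at 1.33, SE 0.17, and ttr-16 at -1.56, SE 0.17).

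**Figure D2:**
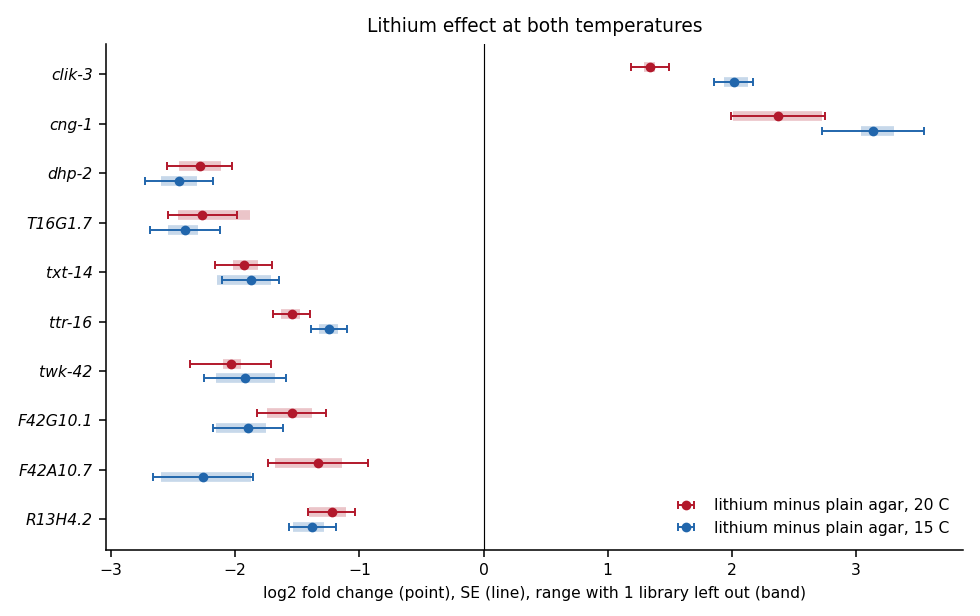
Log2 fold change of lithium against plain agar for each gene at 20 C (red) and 15 C (blue), with SE as lines and the range over fits with 1 library left out as bands. The genes clik-3 and cng-1 lie right of 0 and the other 8 left of it, from -2.45 for dhp-2 at 15 C to -1.22 for R13H4.2 at 20 C.

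Tissue markers moved with lithium as well. The summed level of 15 cuticle and moulting markers was 53.8 to 94.9 CPM with lithium and 156 to 1128 CPM on plain agar at 20 C, and 36.5 to 50.5 CPM with lithium and 64.5 to 236 CPM on plain agar at 15 C. The 15 germline markers summed to 9567 to 10613 CPM with lithium and 3062 to 6447 CPM on plain agar at 20 C, while at 15 C they reached 7888 to 8662 CPM with lithium and 7665 to 8104 CPM on plain agar. At 20 C, 11 of 12 tested cuticle markers were called lower and 7 of 15 germline markers higher, and at 15 C none of either list was called. Of the other lists, 2 of 11 muscle markers, 2 of 10 intestine markers and 1 of 6 yolk markers were called lower and 1 of 4 tested sperm markers higher at 20 C, and 1 of 10 intestine markers was called higher at 15 C. The sperm call at 20 C and the intestine call at 15 C went against the medians of their lists, -1.83 and -0.10. Sperm marker sums were low and overlapped at 20 C, at 6.12 to 8.49 CPM with lithium and 5.60 to 12.4 CPM on plain agar. The 10 neuron markers summed to 276 to 381 CPM with lithium and 253 to 491 CPM on plain agar at 20 C, and 251 to 255 CPM with lithium and 197 to 213 CPM on plain agar at 15 C. The summed muscle markers overlapped at both temperatures, at 2227 to 3558 CPM with lithium and 1949 to 4338 CPM on plain agar at 20 C. Plain-agar replicate 2 at 20 C held the highest cuticle and lowest germline sum of its group. The part of tissue make-up in the members' lithium effects was not tested.

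Relatives of the 10 genes, listed by family name, differed in how they moved with lithium, beside 5.91% of all genes called higher and 6.33% called lower at 20 C and 0.387% called at 15 C. None of the 7 other calponin-like genes was called with lithium at either temperature, with medians of -0.14 at 20 C and -0.22 at 15 C. The pyrimidine list of 8 others held upb-1, which acts after dihydropyrimidinase, called lower at 20 C (-0.68, SE 0.19, adjusted p = 0.0402), and upp-1, a uridine phosphorylase, called higher (0.59, SE 0.14, adjusted p = 0.0284), and no other member at 15 C. No other cyclic nucleotide-gated channel gene of 6 annotated passed the filter on low counts beside cng-1. Of 28 other twk genes, 8 were called lower at 20 C, a larger share than the 6.33% of all genes, among them twk-13 (-2.37, SE 0.42) and twk-12 (-2.21, SE 0.47), and none at 15 C, with medians of -1.02 at 20 C and -0.22 at 15 C. Of 41 other ttr genes, 8 were called lower at 20 C, led by ttr-1 (-2.02, SE 0.35), and none at 15 C, where their median was 0.45 beside -1.24 for ttr-16. None of 8 other txt genes was called with lithium. From the clone of T16G1.7, T16G1.4 (-2.04, SE 0.49) and T16G1.6 (-2.03, SE 0.47) were called lower at 20 C. At 15 C they were not called, with values of -1.61 (SE 0.49, adjusted p = 0.167) for T16G1.4 and -1.81 (SE 0.46, adjusted p = 0.117) for T16G1.6. T16G1.6 lies 425 bases away on the same strand, had 4.83 ± 2.68 CPM with lithium and 17.3 ± 8.61 CPM on plain agar at 15 C (SD, n = 3), and may share reads with T16G1.7. With the temperature of the lithium experiment, 17 of 41 other ttr genes were called lower at 15 C, among them ttr-23 (-2.53, SE 0.54), a larger share than the 9.48% of all genes. For the other twk genes it was 2 of 28, near that share, namely twk-31 (-1.64, SE 0.49) and twk-46 (-0.82, SE 0.23). Whether the lithium effects of the relatives differ between temperatures was not tested.

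Most of the 10 genes were lower after the night at 15 C in the lithium experiment. Averaged over both agars, 7 of the 10 were called at an adjusted p under 0.05, beside 15.3% of all genes: clik-3, cng-1, dhp-2, txt-14, ttr-16 and R13H4.2 lower and F42A10.7 higher (9.48% and 5.82% of all genes were called lower and higher). The lower levels ranged from a log2 fold change of -0.97 for dhp-2 (SE 0.18, adjusted p = 0.0133) to -0.50 for clik-3 (SE 0.11, adjusted p = 0.0183). Between them lay cng-1 at -0.96 (SE 0.27, adjusted p = 0.0368), txt-14 at -0.89 (SE 0.16, adjusted p = 0.0110), R13H4.2 at -0.62 (SE 0.13, adjusted p = 0.0183) and ttr-16 at -0.58 (SE 0.10, adjusted p = 0.0110). Against them stood F42A10.7, higher by 1.59 (SE 0.28, adjusted p = 0.0110). T16G1.7 at -0.57 (adjusted p = 0.0576), twk-42 at -0.68 (adjusted p = 0.0594) and F42G10.1 at -0.29 (adjusted p = 0.295) missed the threshold. The median of the 10 was -0.60, beside -0.0025 over all genes. The choice rested on the same estimate of spread, so the share called among the 10 is not independent of the choice. For clik-3, cng-1 and F42A10.7 lithium and cold therefore had effects of opposite sign, and for the other 4 called genes the same sign. The genes rrp-1 (0.56, adjusted p = 0.0323) and fat-5 (0.81, adjusted p = 0.0191), which overlap dhp-2 and twk-42, were higher at 15 C.

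Comparisons of temperature within a single agar use groups that the choice compared and are not balanced with regard to lithium. The member counts within each agar are therefore descriptions and not tests. On plain agar alone, 5 of the 10 were called between 15 C and 20 C, beside 9.97% of all genes (2.19% higher and 7.77% lower). These were clik-3 (-0.83, SE 0.15), dhp-2 (-0.88, SE 0.25), txt-14 (-0.92, SE 0.22) and ttr-16 (-0.73, SE 0.15) lower and F42A10.7 (2.05, SE 0.40) higher. On lithium edgeR called none of the 10 and 0.0% of all genes, while 6 of the 10 and 11.7% of all genes had an unadjusted p under 0.05 and DESeq2 called 73 genes, none of them a member. With the replicate number as a block edgeR called 3 genes on lithium and no member. The effects on lithium had the same sign as on plain agar for all 10, from -1.05 for dhp-2 (SE 0.27) to 1.13 for F42A10.7 (SE 0.40). For clik-3 the value on lithium was -0.16 (SE 0.15). The counts of called members on the average of both agars rested on single libraries, with 3 without plain-agar replicate 3 at 15 C, 4 without plain-agar replicate 2 at 15 C and none without replicate 2 of all 4 groups. F42A10.7, txt-14 and ttr-16 passed in all 12 fits that left out 1 library, dhp-2 in 11, R13H4.2 in 10, clik-3 in 9 and cng-1 in 2. Plain-agar replicates 2 and 3 at 15 C also held 28.4% and 24.2% of their counts in ribosomal RNA genes, against 1.08% to 13.8% in the other 10 libraries. With the ribosomal RNA rows removed before scaling, 7 members were called.

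**Figure D3:**
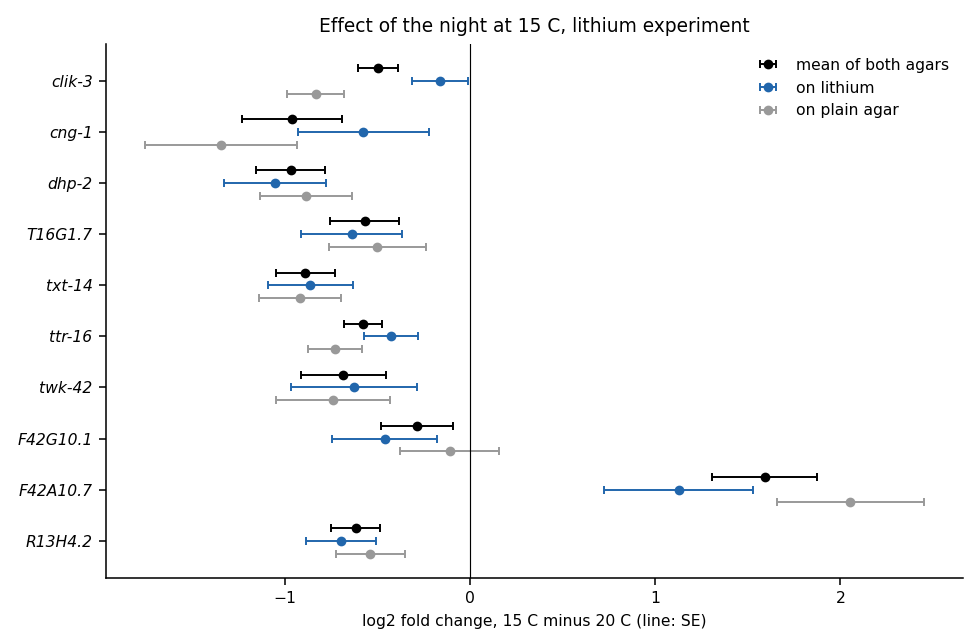
Log2 fold change between 15 C and 20 C for each gene with SE as lines, as the mean of both agars (black), on lithium (blue) and on plain agar (grey). Only F42A10.7 lies right of 0, at 1.59 in the mean of both agars, and F42G10.1 on plain agar lies closest to 0 at -0.11.

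In worms on ice, none of the 10 genes was called between any of the cultivation temperatures. Naive and conditioned counts of each letter (the replicate name in the labels) were added, giving 3 sums per temperature. Only letter H occurs at more than 1 temperature, and which SMART-Seq kit served which library is not given in the sources used here, so the temperature effects on ice cannot be told apart from letter or kit. For 15 C against 20 C edgeR called 0.0% of all genes and 1 of the 10 and 12.6% of all genes had an unadjusted p under 0.05, and DESeq2 called 173 genes with no member among them. For shifted worms edgeR called 0.0% of all genes against either temperature, no member had an unadjusted p under 0.05 beside 12.0% of all genes against 20 C and 3.32% against 15 C, and DESeq2 called 974 genes against 20 C and 1 against 15 C, without a member. The 3 sums of 1 temperature overlapped those of the others for all 10 genes, while 10.3%, 15.9% and 3.37% of all genes had no overlap for 15 C against 20 C, shifted against 20 C and shifted against 15 C. The spread between letters was large, with a common biological coefficient of variation of 0.645 against 0.294 in the lithium experiment, so that SEs of the members ran from 0.54 to 1.03 in the comparison of 15 C with 20 C. Members' effects of 15 C against 20 C ran from -2.19 (txt-14) to 1.45 (cng-1), 4 of 10 below 0 beside 43.1% of all genes. The median of all genes was 0.14 in that comparison with TMM scaling and 0.03 with the size factors of DESeq2, beside 0.25 and 0.17 for the 10.

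The member with the lowest p, txt-14, had 4.48, 1.34 and 2.89 CPM at 15 C (letters B, G and H), 2.54, 2.19 and 5.95 CPM after the shift (C, D and H) and 4.67, 31.8 and 3.24 CPM at 20 C (A, E and F). Its effect of 15 C against 20 C was -2.19 (SE 0.89, adjusted p = 0.390), and -0.45 without letter E, which alone was high. clik-3 had 72.8, 19.4 and 38.1 CPM at 15 C, 26.3, 33.2 and 55.9 CPM after the shift and 31.9, 83.6 and 30.5 CPM at 20 C. Letter E was thus the highest of the 9 sums for clik-3 as well, and the lowest for twk-42, at 3.26 CPM against 15.1 and 19.6. It was the lowest for F42G10.1 at 3.79 CPM against 19.4 and 31.3, too. Its libraries had the fewest counts, 9873554 and 10334483, and a yolk marker sum of 25346 CPM against 444126 and 130654 in letters A and F. F42G10.1 had 26.2, 38.3 and 29.9 CPM at 15 C and 68.3, 51.5 and 15.9 CPM after the shift, with an effect of the shift against 20 C of 1.31 (SE 0.71, adjusted p = 0.500) and 0.82 without letter E.

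T16G1.7 had 355, 114.8 and 325 CPM at 15 C, 82.2, 84.3 and 434 CPM after the shift and 146, 51.6 and 171 CPM at 20 C. R13H4.2 followed the same letters, with 428, 138 and 373 CPM at 15 C, 150, 149 and 431 CPM after the shift and 218, 120 and 190 CPM at 20 C. Both were high in letter B at 15 C and in letter H at 15 C and after the shift, lower in letters G, C and D, and lowest in letter E at 20 C. ttr-16 had 1309, 617 and 1313 CPM at 15 C, 716, 785 and 1720 CPM after the shift and 1079, 1496 and 926 CPM at 20 C. F42A10.7, the gene that was higher at 15 C in the lithium experiment, had 8.98, 29.0 and 84.3 CPM at 15 C, 10.6, 15.3 and 168 CPM after the shift and 19.1, 48.3 and 23.0 CPM at 20 C. Its effect of 15 C against 20 C was 0.44 (SE 1.03), and -0.66 without letter H at 15 C. Germline marker sums were 3495 and 3838 CPM in letters B and H at 15 C and 2457 CPM in letter H after the shift, against 7208 to 11033 CPM in the other 6 sums. The part of germline and yolk content in these values was not tested.

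Of the channel and enzyme genes, cng-1 and dhp-2 were sparse on ice. cng-1 had 2.30, 0.650 and 0.549 CPM at 15 C, 0.878, 0.849 and 0.467 CPM after the shift and 0.277, 0.288 and 0.687 CPM at 20 C, with as few as 2 counts in a library. The effect of 15 C against 20 C was 1.45 (SE 0.78, adjusted p = 0.421), and 0.50 without letter B. twk-42 had 8.35, 8.21 and 12.96 CPM at 15 C, 8.86, 10.3 and 14.8 CPM after the shift and 15.1, 3.26 and 19.6 CPM at 20 C. The sums of dhp-2 overlapped between temperatures, at 1.49 to 2.98 CPM at 15 C, 1.67 to 3.09 CPM after the shift and 1.68 to 3.10 CPM at 20 C. Its effect of 15 C against 20 C was 0.07, with an SE of 0.54 that cannot tell no change from a change in either direction. With the size factors of DESeq2 that effect was -0.03, so no direction is given for it.

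**Figure D4:**
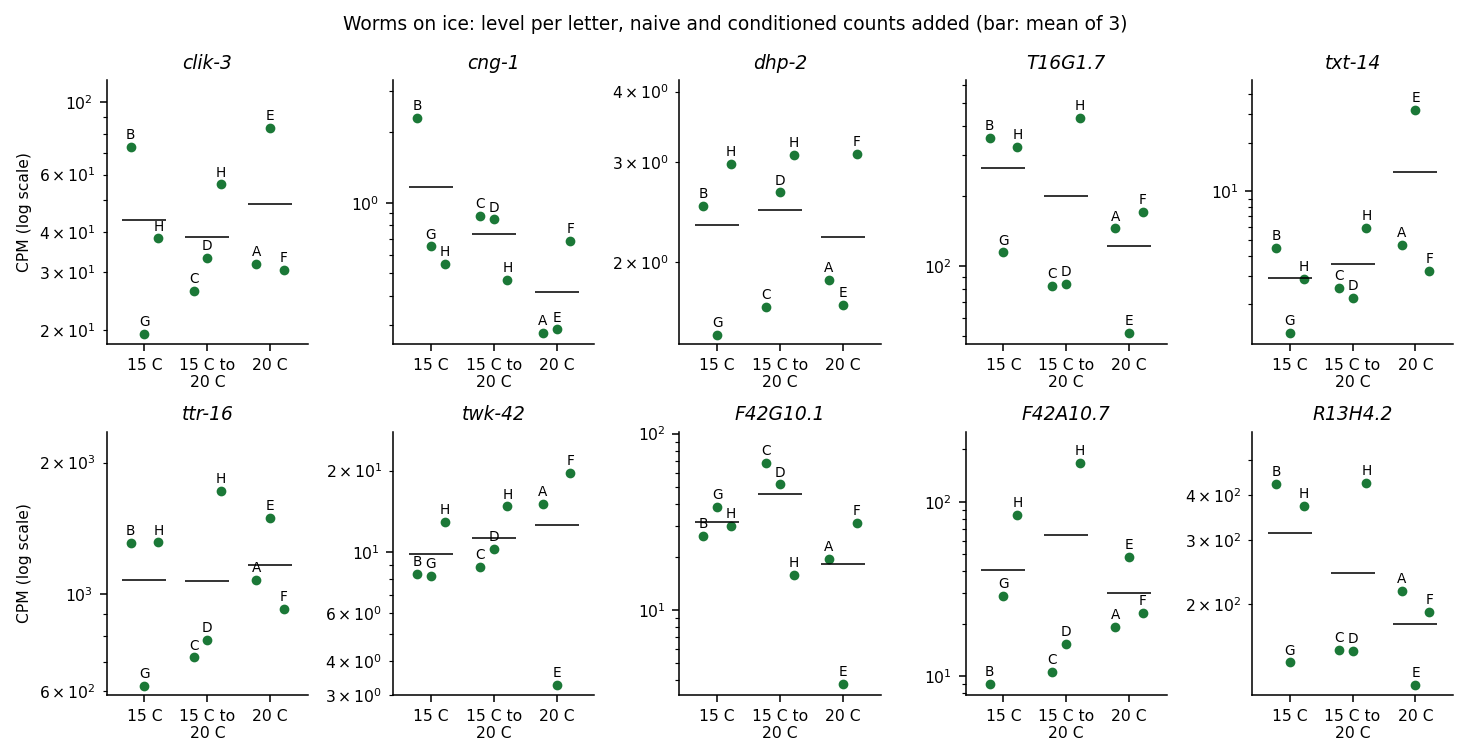
CPM on a log axis for the 10 genes in worms on ice at 15 C, at 15 C and then 20 C, and at 20 C, with 1 point per letter (naive and conditioned counts added) and bars at the mean of 3. Temperatures overlap in all 10 panels, and letter E at 20 C stands apart for txt-14 (31.8 CPM) and F42G10.1 (3.79 CPM).

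Each conditioned library on ice has a naive library of the same letter, giving 9 pairs. The main fit compared conditioned with naive groups without using the letter, so it ignored this pairing. In that fit none of the 10 genes was called and edgeR called 0.0% of all genes. There 0.215% of all genes (32) and no member had an unadjusted p under 0.05. DESeq2, also without the letter, called none. With the letter as a block there were again no calls. In the fit with the letter as a block, an unadjusted p under 0.05 was found for 1320 of 14864 genes. It was also found for 2 of the 10 members, T16G1.7 and dhp-2. T16G1.7 had 353, 113 and 379 CPM in conditioned and 346, 103 and 302 CPM in naive worms at 15 C (letters B, G and H). After the shift it had 88.3, 89.9 and 537 CPM in conditioned and 76.3, 75.6 and 351 CPM in naive worms (C, D and H). At 20 C it had 184, 53.8 and 190 CPM in conditioned and 133, 48.1 and 148 CPM in naive worms (A, E and F). Conditioned worms were higher in 9 of 9 pairs, by 0.03 to 0.61 on the log2 scale, as were 0.424% of all genes (63 of 14864). The blocked effect was 0.29 (SE 0.08, unadjusted p = 0.0028, adjusted p = 0.401), which fails the correction over all genes.

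The other members had pairs in both directions. dhp-2 was lower in conditioned worms in all 3 pairs at 15 C and all 3 at 20 C, and slightly higher in all 3 after the shift, at counts of 5 to 99 per library. Its blocked effect was -0.46 (SE 0.21, unadjusted p = 0.0445, adjusted p = 0.554). clik-3 and ttr-16 were higher in conditioned worms of letter E at 20 C, by 1.48 and 1.46, and lower in letter F, by -0.58 and -0.76. The widest difference, 3.06 for cng-1 in letter F at 20 C, rests on 29 and 2 counts.

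**Figure D5:**
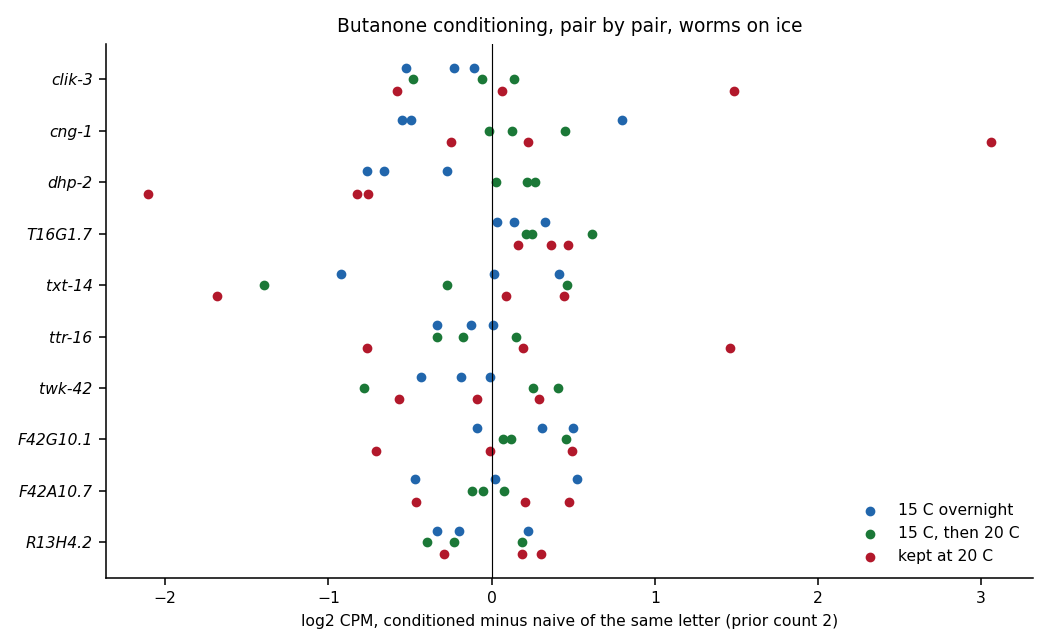
Difference in log2 CPM, conditioned minus naive worms of the same letter, for each gene and pair, at 15 C (blue), at 15 C and then 20 C (green) and at 20 C (red). For T16G1.7 all 9 points lie right of 0, from 0.03 to 0.61, and for cng-1 1 point lies at 3.06.

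Genes with the pattern most like that of the members were ranked by Pearson correlation of log2 CPM with the mean of the standardised members. The ranking is a description only, because libraries of the same group, and on ice of the same letter, are not independent. Over the 12 libraries of the lithium experiment, the profile of the 8 lowered members was closest to pmp-5 (0.96), an ABC transporter gene, pck-1 (0.95), which encodes phosphoenolpyruvate carboxykinase, and btb-14 (0.94), among 7377 genes. The profile of clik-3 and cng-1 was closest to parg-2 (0.96), a poly(ADP-ribose) glycohydrolase gene, the lectin gene clec-190 (0.95) and ZK228.4 (0.93). All 6 are themselves among the 34 genes called at both temperatures. Over the 18 libraries on ice other genes ranked first: lfe-2 (0.96), which encodes an inositol trisphosphate kinase, T05E11.9 (0.96) and W05H9.3 (0.96) for the 8, and DH11.2 (0.87), F31F7.1 (0.83) and abts-4 (0.82) for clik-3 and cng-1. These means on ice are not patterns that all their members share. T16G1.7 and R13H4.2 followed the same letters, but in letter E F42G10.1 was lowest (3.79 CPM) and txt-14 highest (31.8 CPM). The highest sum of clik-3 was in letter E and that of cng-1 in letter B.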

How the data were processed

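The authors deposited 1 table of unnormalised read counts for each experiment; all values were whole numbers and each column matched 1 sample title. Per the submitters' processing notes, cutadapt, FastQC, HISAT2, HTSeq and DESeq2 were used with build ce11; versions, filters and the strand setting are not given in the sources used here. Per the labels' protocols, lithium libraries came from a directional kit and ice libraries from Nextera XT. Members, lists and tests were chosen with earlier results of these data known. From the counts, edgeR 4.0.16 (R 4.3.3) computed TMM scaling, filterByExpr, robust quasi-likelihood tests and Benjamini-Hochberg adjustment over all genes (threshold 0.05, two-sided); 12392, 15412 and 14864 genes were tested in the lithium, ice temperature and ice training fits. CPM logs used a prior count of 2. SE is the absolute log2 fold change over the root of F. Changes are log2 fold changes computed from the deposited counts. Alternatives were DESeq2 1.42.0, its size factors, no filter, blocks, other library sets and leaving libraries out. Scripts were tested on simulated data. Genes named were the members, overlapping and nearest genes, up to 3 called genes per family and comparison, and 3 genes of like pattern; single letters, pairs and the neighbour pho-8 were singled out after their values were seen. Replicates are separate samples in the labels, and nothing says whether they came from separate cultures, so p-values measure the spread between these samples. Letters pair naive and conditioned worms: deviations of same-letter libraries correlated at 0.471 to 0.897 in all 9 pairs. In the lithium experiment same-numbered libraries correlated above 0.1 in all 3 pairs of lithium and plain agar at 15 C (0.166 to 0.252). The same held for lithium at 15 C and 20 C (0.195 to 0.265), and for plain agar at 15 C and lithium at 20 C (0.194 to 0.278). Differently numbered libraries also reached 0.215 (plain-agar replicate 1 and lithium replicate 3 at 15 C) and 0.496 (lithium replicate 1 and plain-agar replicate 2 at 20 C). Over all groups, same-numbered libraries correlated at -0.316 to 0.346, and above 0.1 in 13 of 18 pairs. The numbers may pair some samples, from the data and not the labels, but this is not established.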

Additional observations from a re-analysis of the deposited data

Results flagged for a closer look

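The conditioned minus naive difference of dhp-2, the dihydropyrimidinase gene, lay above 0 in all 3 pairs of shifted worms and below 0 in all 3 pairs at 15 C and all 3 at 20 C. After the shift it had 1.67, 2.81 and 3.50 CPM in conditioned and 1.64, 2.40 and 2.90 CPM in naive worms (letters C, D and H). At 15 C it had 1.87, 1.04 and 2.76 CPM in conditioned and 3.23, 1.696 and 3.35 CPM in naive worms (B, G and H), and at 20 C 1.42, 0.525 and 2.20 CPM in conditioned and 2.58, 2.56 and 3.78 CPM in naive worms (A, E and F). The mean difference was 0.17 after the shift, against -0.57 at 15 C and -1.23 at 20 C on the log2 scale, so shifted worms differed by 0.73 from worms at 15 C and by 1.40 from worms at 20 C. In the fit with the letter as a block, the difference of the training effects was 0.76 (SE 0.42) against 15 C and 1.32 (SE 0.44) against 20 C. The gene was picked for this difference, so these values describe it and do not test it. Over all 14864 genes edgeR called none for either difference, while 0.801% of them against 15 C and 2.68% against 20 C had an unadjusted p under 0.05. The counts behind it were low, with 5 in conditioned and 30 in naive worms of letter E at 20 C.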

How the results depend on the processing

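No called effect of a member changed sign in the alternatives run; uncalled ice effects did, F42A10.7 for the shift against 20 C being 1.10, and -1.23 without letter H after the shift. The counts of called genes did move. With lithium at 20 C, 1516 genes were called, 2575 with DESeq2, 984 without the filter, 0 with the 6 libraries of that temperature (0 members) and 13 without replicate 2 of all groups (5 members). With lithium at 15 C, 48 were called (20 higher, 28 lower), 390 with DESeq2, 264 with the 6 libraries of that temperature, 9 without replicate 2 of all groups (4 members), and 73 (23 higher, 50 lower) with ribosomal RNA rows removed, an alternative chosen after seeing the data. For temperature in the lithium experiment, 1896 genes were called, 2858 with DESeq2, 1213 without the filter, and 0 genes and 0 members without replicate 2 of all groups. On ice no gene was called; for 15 C against 20 C there were 173 with DESeq2, 972 without the filter (1 member, txt-14 at -2.22, SE 0.69) and 48 with the 18 libraries unsummed. For the shift there were 974, 1320 and 1143 in the same order against 20 C, and 1 with DESeq2 and 284 without the filter against 15 C. Training gave 1 gene without the filter. With 1 library left out the calls ran from 5 to 2855 genes and 4 to 10 members for lithium at 20 C, 11 to 237 and 5 to 10 at 15 C, 140 to 2693 and 3 to 8 for temperature, and 0 to 554 genes for the shift against 20 C. F42A10.7 with lithium at 20 C also missed the threshold with DESeq2's size factors (-1.32) and without the filter (-1.34), and T16G1.7 passed for temperature with DESeq2 (-0.55). The replicate number as a block in the lithium experiment left 10, 10 and 7 members called, with 1479, 63 and 1792 genes for lithium at 20 C, lithium at 15 C and temperature, with the same members called as without it. On plain agar alone it lost dhp-2 and added R13H4.2 for temperature, and on lithium it called 3 genes and no member. At 20 C same-numbered libraries of lithium and plain agar correlated at -0.235 to 0.341, and the numbers were not taken as established pairs at either temperature. The letter block changed no call on ice. Between temperatures on ice no paired analysis was possible, because the sums of different temperatures share only letter H. Depth limits cng-1, twk-42 and dhp-2 most, with as few as 2, 4 and 5 counts in a library.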

Other observations

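The nearest protein-coding genes of the 10 were read in the same lithium fit. Of 20 neighbours, 12 passed the filter on low counts, 4 were called lower with lithium at 20 C, beside 6.33% of all genes, and none was called at 15 C, beside 0.387% of all genes. Next to F42A10.7, F42A10.6 averaged 29.99 ± 4.09 CPM in lithium worms and 60.5 ± 10.3 CPM in worms on plain agar at 20 C (SD over 3 replicates), a change of -1.01 (SE 0.17) on the log2 scale. At 15 C it averaged 42.04 ± 2.995 CPM in lithium worms and 63.998 ± 3.93 CPM in worms on plain agar. The others called lower at 20 C were pqn-67 (-1.86, SE 0.54) and T16G1.6 (-2.03, SE 0.47), which flank T16G1.7, and grdn-1 (-2.03, SE 0.57) beside txt-14. At 20 C T16G1.6 averaged 5.48 ± 1.99 CPM with lithium and 22.4 ± 4.52 CPM on plain agar. The level of pqn-67 was low, at 0.339 ± 0.0987 CPM with lithium and 1.27 ± 0.783 CPM on plain agar. For grdn-1 the plain-agar replicates were very unequal, at 17.9 ± 17.1 CPM against 4.37 ± 1.02 CPM with lithium. The gene pho-8 beside R13H4.2 had 1.95 ± 0.937 CPM with lithium and 0.347 ± 0.128 CPM on plain agar at 15 C and was not called.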
